A study of Mus musculus with 23 samples.

Results

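The genes described here act in mitosis. The list of 39 genes holds the mitotic cyclins, kinases, kinesins, spindle, kinetochore and condensin genes, and its members are all probe sets whose platform annotation names exactly 1 gene of the list. A probe set is a group of short probes that together measure 1 transcript. Of the 39 genes 37 had such a probe set, 63 probe sets in all, against 12393 genes and 22626 probe sets on the whole array. Ccnb1 and Cdca8 had none and were not analysed here. One probe set measured 20 of the genes and several measured the other 17, which are represented below by the brightest.

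Expression was measured on 23 Affymetrix mouse arrays in tongue and in *longissimus dorsi*, a muscle along the spine. BF (BION Flown) mice spent 30 days aboard the Bion-M1 biosatellite, FC (Flight Control) mice stayed in the animal facility over that time, and BG (BION Ground) mice lived for 30 days on the ground in the habitat of the biosatellite. All were adult male C57/BL6 mice, for which the labels name no allele or drug, and tissue of flown mice was taken within hours after landing, so that landing and readaptation are part of the BF group. Tongue was measured in 3 BF, 2 FC and 3 BG samples and *longissimus dorsi* in 5 samples of each group. The p-values below rest on 1 spread per probe set, shared by all 23 samples of both tissues. It can be smaller than the spread between the tongues compared. For Ccnb2 the SD was 0.1661 to 0.8435 in the tongue groups and 0.0389 to 0.239 in those of *longissimus dorsi*. Whether tongue and *longissimus dorsi* were taken from the same animals is not stated in the sources used here.

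Dividing cells switch on a common set of genes shortly before mitosis. Cyclins A and B activate Cdk1, which drives entry into mitosis, Aurora and Polo-like kinases build the spindle, checkpoint proteins hold the anaphase promoting complex back until every chromosome is attached, and the ring of anillin and its partners then splits the cell. Many promoters of these genes carry a CHR element and CCAAT boxes, sites bound by the MuvB complexes and by NF-Y. Mature muscle fibres do not divide, whereas the basal cells of the tongue epithelium renew it throughout life.

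Values are log2 expression, so that a difference of 1 is 2-fold. The array medians were 6.42 to 6.61, and each array correlated with those of the same group at a mean Pearson r of 0.979 to 0.996 across probe sets, which are no independent replicates. The array of *longissimus dorsi* BG replicate 5 stood farthest from its group, with an SD of 0.356 around the group mean. Muscle markers were present in both tissues, as Ckm (creatine kinase of muscle) was at 13.65 to 14.06 in tongue and 14.22 to 14.31 in *longissimus dorsi*. Not all muscle fibre markers were as even between tongues. Acta1 was at 13.70 to 14.15, but Actn3 was at 6.53 to 11.64 (6.88 and 6.83 in FC). Myh2 was at 6.39 to 10.39 (6.99 and 6.58 in FC). The tongue samples also held epithelium. Krt13, a keratin of the mucosal surface, was at 13.57 to 13.91 in tongue and 3.22 to 4.35 in *longissimus dorsi* on its brighter probe set. Mitosis genes were dim, since 58 of the 63 probe sets had a mean below 6.56, the median of all probe sets.

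In tongue the mitosis genes were lowest in BF, nearly as low in FC and highest in BG, and in *longissimus dorsi* they were low in every group. The mean over the 63 probe sets was 5.39, 5.80 and 5.43 in the 3 BF tongues, 5.66 and 5.68 in the FC tongues and 6.41, 6.49 and 5.88 in the BG tongues. Every BG tongue lay above every BF and FC tongue, but BG replicate 3 exceeded BF replicate 2, the highest of the flown mice, only slightly. In *longissimus dorsi* the mean was 4.71 to 4.80 in BF, 4.80 to 4.89 in FC and 4.77 to 4.94 in BG. In a piece of whole tissue fewer cells in mitosis and less RNA per cell cannot be told apart.

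**Figure D1:**
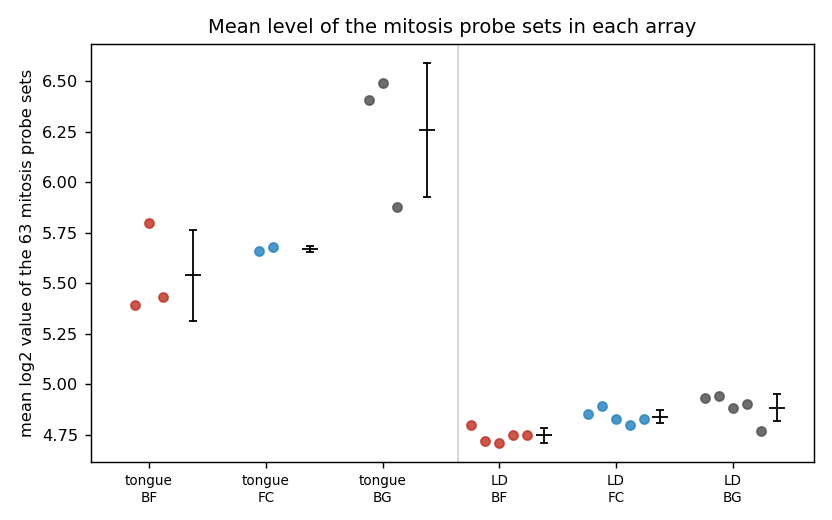
Mean log2 value of the 63 mitosis probe sets (vertical axis) in each of 23 arrays (points), grouped by tissue and housing along the horizontal axis (LD, *longissimus dorsi*), with bars for group mean ± SD beside the points. BF tongues averaged 5.54 ± 0.226 (SD, n = 3), FC tongues 5.67 ± 0.0141 (SD, n = 2) and BG tongues 6.26 ± 0.332 (SD, n = 3), whereas all *longissimus dorsi* arrays lay between 4.71 and 4.94.

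The first comparison asked how the genes in tongue differed after flight from the ground habitat. Of the 63 probe sets 24, of 21 genes, were lower in BF than in BG and 0 were higher at an adjusted p under 0.05 in limma, and 18 of the 24 were more than 2-fold lower. Over all probe sets 0.473% were lower and 0.354% higher at that threshold, and 0.159% were more than 2-fold lower. In 26 of the 63 every BF array was below every BG array, as in 8.84% of all probe sets. The median log2 change was -0.68 over the members (range -2.06 to 0.16, 59 of 63 below 0) and 0.02 over all probe sets. The list of tongue genes that the study drew from these same arrays held several members, so that this count is not independent evidence of a direction. The count rested on single arrays. It was 2 without BF replicate 1, 3 without BF replicate 3, 2 when BG replicate 1 was left out and 4 when BG replicate 2 was. It was 35 when BF replicate 2 and 37 when BG replicate 3 was dropped, and 1 in a fit of the tongue arrays alone, where Ccnb2 was the probe set that passed. The fit of tongue alone with the replicate number as a block, added after the data were seen, gave 30. The median stayed between -0.55 and -0.88 in all of these fits.

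The FC tongues were set against the same BG arrays, so that both comparisons share whatever was particular to those 3 samples. In FC vs. BG 18 of the 63 probe sets, of 16 genes, were lower and 0 were higher, and 13 were more than 2-fold lower. Of all probe sets 4.33% were lower in this comparison and 5.13% higher, and 0.654% were more than 2-fold lower. In 30 of the 63 both FC arrays lay below every BG array, against 20.4% of all probe sets. The median log2 change was -0.57 over the members (range -2.02 to 0.49) and 0.02 over all probe sets. This count was 5 when FC replicate 1 was left out and 7 when FC replicate 2 was. Leaving out BG replicate 2 gave 8, leaving out BG replicate 3 gave 33, and the tongue arrays alone gave 10. In BF vs. FC, which shares no BG array, 2 probe sets were lower in BF and 0 higher, against 1.08% of all probe sets lower, with a median of -0.11 (range -0.78 to 0.35). Both belonged to condensin, the complex that compacts chromosomes. Ncapd2 changed by -0.72 (SE 0.179, adjusted p = 0.0342) and the dimmest of the 3 Smc4 probe sets by -0.78 (SE 0.18, adjusted p = 0.0226). The other Smc4 probe sets did not pass, with means of 8.62 and 7.6 in BF and 8.96 and 7.83 in FC. This count fell to 0 without BF replicate 3, FC replicate 1 or FC replicate 2, was 1 without BF replicate 1 and was 4 without BF replicate 2.

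**Figure D2:**
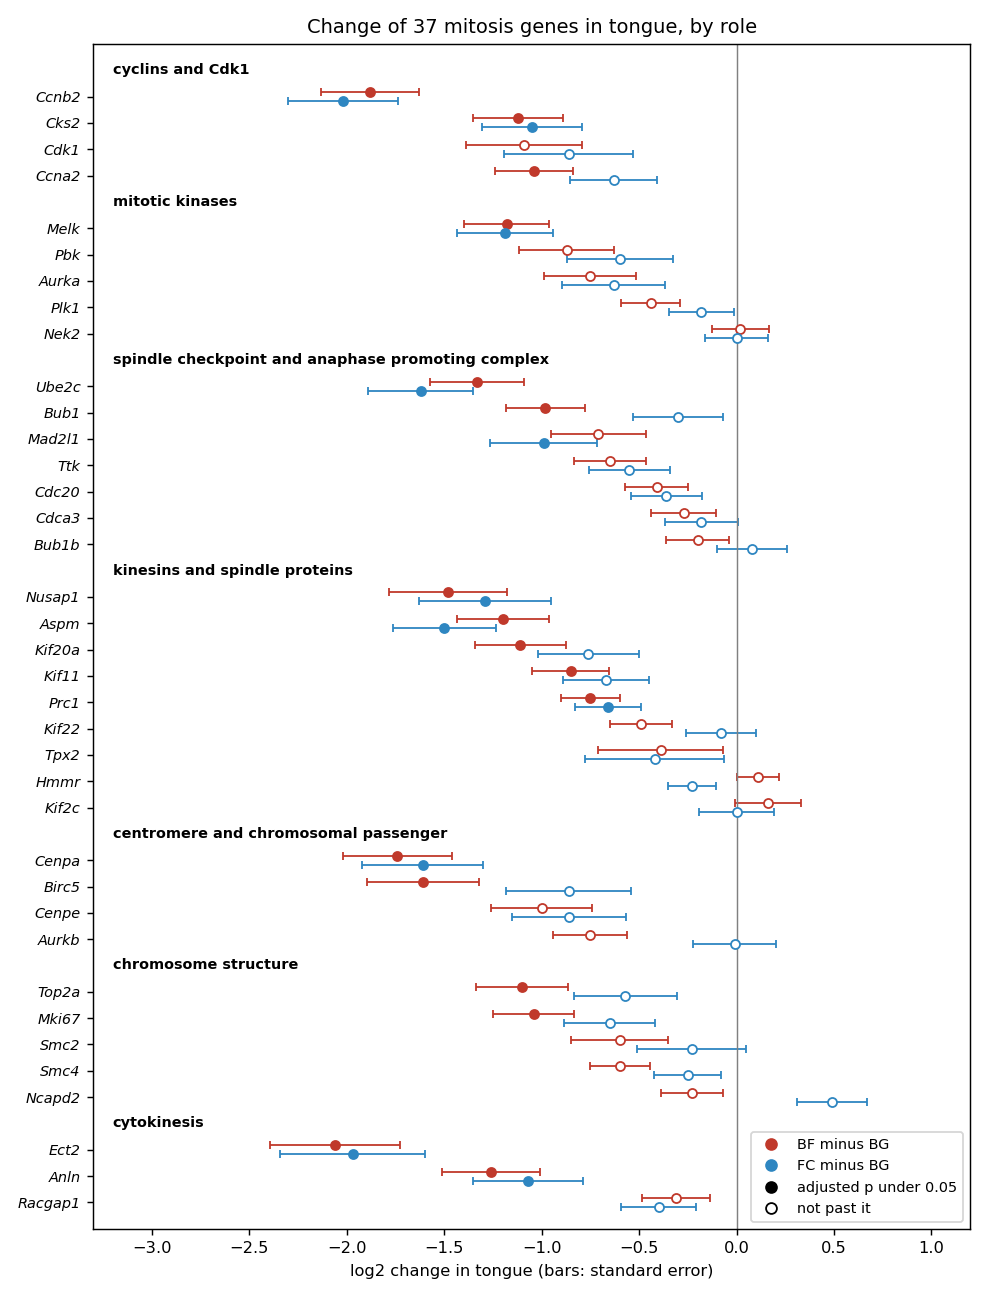
Log2 change in tongue (horizontal axis, bars for 1 SE) of 37 mitosis genes by role, with BF minus BG in red above FC minus BG in blue and filled points for an adjusted p under 0.05. Both comparisons use the same 3 BG arrays. Ect2 and Ccnb2 lay farthest to the left, near -2 in both, whereas Nek2 and Kif2c lay at or near 0. Points show the brightest probe set of each gene, and a dimmer one of Kif2c changed by -1.28 and -1.43.

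Promoters are shown for the 5 members whose representing probe sets had the smallest p in tongue BF vs. BG and for Aurka, which had the smallest in *longissimus dorsi* BF vs. BG, so that the sites they hold, or lack, can be read. The sequences are RefSeq GRCm38.p6, from 250 bases before to 50 bases after the start of the gene, read 5′ to 3′ in the direction of the gene (Ccnb2 at chr9:70421505-70421804, minus strand; Ube2c at chr2:164769679-164769978, plus strand; Cenpa at chr5:30666636-30666935, plus strand; Birc5 at chr11:117848987-117849286, plus strand; Ect2 at chr3:27153829-27154128, minus strand; Aurka at chr2:172370521-172370820, minus strand). Capitals mark the CHR element, TTTGAA or TTTAAA, and the CCAAT box, CCAAT, each on either strand (as TTCAAA and ATTGG on the other), where neighbouring matches may overlap.
Ccnb2: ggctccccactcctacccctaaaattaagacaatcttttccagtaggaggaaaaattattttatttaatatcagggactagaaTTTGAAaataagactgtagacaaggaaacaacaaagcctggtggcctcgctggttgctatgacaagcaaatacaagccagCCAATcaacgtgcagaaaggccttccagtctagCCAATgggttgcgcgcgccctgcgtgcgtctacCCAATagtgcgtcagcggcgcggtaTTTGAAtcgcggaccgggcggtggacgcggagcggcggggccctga
Ube2c: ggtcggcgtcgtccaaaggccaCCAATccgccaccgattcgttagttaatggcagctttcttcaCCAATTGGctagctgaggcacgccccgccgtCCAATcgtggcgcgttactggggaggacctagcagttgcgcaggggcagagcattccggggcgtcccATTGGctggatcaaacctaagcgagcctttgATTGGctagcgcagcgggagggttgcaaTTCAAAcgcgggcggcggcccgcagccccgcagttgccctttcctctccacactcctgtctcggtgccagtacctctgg
Cenpa: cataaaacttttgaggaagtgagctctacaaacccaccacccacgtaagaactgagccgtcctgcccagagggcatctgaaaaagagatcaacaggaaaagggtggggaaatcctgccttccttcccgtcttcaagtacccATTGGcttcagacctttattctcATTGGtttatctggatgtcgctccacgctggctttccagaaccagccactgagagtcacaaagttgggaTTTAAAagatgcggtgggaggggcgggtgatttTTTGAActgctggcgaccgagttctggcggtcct
Birc5: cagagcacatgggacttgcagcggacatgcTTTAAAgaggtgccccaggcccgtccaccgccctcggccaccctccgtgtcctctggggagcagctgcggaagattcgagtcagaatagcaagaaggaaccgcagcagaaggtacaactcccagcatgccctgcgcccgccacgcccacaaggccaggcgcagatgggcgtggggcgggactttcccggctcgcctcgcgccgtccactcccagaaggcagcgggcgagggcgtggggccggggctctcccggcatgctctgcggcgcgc
Ect2: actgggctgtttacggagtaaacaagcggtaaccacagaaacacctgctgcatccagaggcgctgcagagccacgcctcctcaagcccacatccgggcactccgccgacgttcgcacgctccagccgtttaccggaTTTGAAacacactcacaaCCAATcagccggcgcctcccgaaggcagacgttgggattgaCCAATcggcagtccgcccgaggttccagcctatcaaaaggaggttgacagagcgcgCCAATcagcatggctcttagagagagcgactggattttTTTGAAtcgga
Aurka: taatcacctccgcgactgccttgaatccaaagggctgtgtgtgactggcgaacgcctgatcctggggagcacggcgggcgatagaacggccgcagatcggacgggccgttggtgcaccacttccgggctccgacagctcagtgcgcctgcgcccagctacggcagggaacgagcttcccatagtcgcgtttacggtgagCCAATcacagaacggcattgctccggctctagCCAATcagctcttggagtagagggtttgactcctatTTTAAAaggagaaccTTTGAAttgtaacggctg

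A promoter of this length was available for 33 of the 39 genes. A CHR element was found in 27 of the 33 (81.8%), against 27.8% of all 27025 promoters of this length. CCAAT boxes were found in 27 (81.8%) against 37.9%, and both together in 24 (72.7%) against 10.9%. A pair of CCAAT boxes 31 to 33 bases apart, a spacing looked at after the sequences had been seen, was found in 8 of the 33 (24.2%) against 1.04% of all. Ccnb2, Ube2c and Aurka were among the 8. Birc5 carried 1 CHR element and 0 CCAAT boxes, and Melk carried neither motif. A match is a description of the letters and does not show that a factor was bound.

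Among the cyclins and their kinase, 4 of 6 probe sets were lower in BF than in BG tongue and 4 of 6 in FC than in BG. Ccnb2, the B2 cyclin that partners Cdk1 at entry into mitosis, had values of 6.18, 6.45 and 5.93 in BF, 6.16 and 5.92 in FC and 8.63, 8.47 and 7.09 in BG tongues. Neither BF nor FC overlapped with BG, and BG replicate 3 was well below the other BG tongues. The change was -1.88 in BF vs. BG (3.67-fold lower, SE 0.253, adjusted p = 0.00111) and -2.02 in FC vs. BG (SE 0.283, adjusted p = 0.000217). It passed under each of the 32 alternatives run for it in either comparison, with adjusted p up to 0.0474 and 0.0103. Ccna2, the A2 cyclin of S phase and early mitosis, had 6.55, 7.37 and 6.69 in BF, 7.14 and 7.42 in FC and 8.16, 8.17 and 7.39 in BG. BF lay below BG throughout, although BF replicate 2 and BG replicate 3 were nearly equal, and FC overlapped with BG. Ccna2 changed by -1.04 in BF vs. BG (SE 0.201, adjusted p = 0.0169) and by -0.63 in FC vs. BG (adjusted p = 0.0789), while its dimmer probe set was lower in both (-1.17 and -1.43, adjusted p = 0.0203 and 0.00231). Cks2, a small subunit of Cdk1, was lower in both (-1.12 and -1.05, adjusted p = 0.0211 and 0.0141). Its second probe set had -1.05 in BF vs. BG, which did not pass, and -1.35 in FC vs. BG, which did. Cdk1 itself had estimates of -1.09 and -0.86 that did not pass (adjusted p = 0.0788 and 0.108).

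Only 1 of the 5 mitotic kinases, Melk, passed in either comparison with BG. Melk, a kinase abundant in dividing progenitor cells, had 4.55, 5.64 and 4.77 in BF, 5.24 and 4.70 in FC and 5.78, 6.62 and 6.09 in BG. All BG tongues lay above all others, BF replicate 2 being the nearest. It changed by -1.18 in BF vs. BG (SE 0.22, adjusted p = 0.0142) and -1.19 in FC vs. BG (SE 0.246, adjusted p = 0.00497). Pbk, a kinase active in mitotic cells, had 5.92, 7.13 and 5.71 in BF, 6.59 and 6.46 in FC and 7.51, 7.13 and 6.73 in BG. BF replicate 2 equalled BG replicate 2, and the estimates of -0.87 and -0.60 did not pass (adjusted p = 0.0872 and 0.182). The spindle kinases Aurka, Plk1 and Nek2 had estimates of -0.75, -0.44 and 0.02 in BF vs. BG (adjusted p = 0.125, 0.158 and 0.976).

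Of the 12 probe sets of the spindle checkpoint and the anaphase promoting complex 3 were lower in BF and 3 in FC than in BG. Ube2c, the enzyme that hands ubiquitin to the anaphase promoting complex for the destruction of cyclin B, had 5.49, 5.86 and 6.22 in BF, 5.74 and 5.41 in FC and 7.61, 7.45 and 6.52 in BG. The groups did not overlap with BG. It changed by -1.33 (SE 0.24, adjusted p = 0.0136) in BF vs. BG and -1.62 (SE 0.268, adjusted p = 0.00109) in FC vs. BG. Bub1, a kinase of the checkpoint at the kinetochore, had 4.60, 5.61 and 4.38 in BF, 5.39 and 5.69 in FC and 5.97, 5.97 and 5.59 in BG. BF replicate 2 and FC replicate 2 lay just above the lowest BG value. Bub1 changed by -0.98 in BF vs. BG (SE 0.205, adjusted p = 0.0225) and -0.30 in FC vs. BG (adjusted p = 0.493). Its second probe set had an estimate of -0.16 in either comparison and did not pass. Cdc20, the activator of the complex, split by probe set: a dimmer one was lower in both comparisons (-1.32 and -1.08, adjusted p = 0.0136 and 0.0163), and the brightest had an estimate of -0.41 in BF vs. BG (adjusted p = 0.224). Mad2l1, which inhibits Cdc20 in the checkpoint, was lower in FC vs. BG (-0.99, adjusted p = 0.0255), with -0.71 in BF vs. BG (adjusted p = 0.156). Ttk and Bub1b, both checkpoint kinases or their relatives, and Cdca3, which triggers entry into mitosis, had estimates of -0.65, -0.20 and -0.27 in BF vs. BG, none of which passed.

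Kinesins and spindle proteins contributed 9 of 23 probe sets lower in BF and 7 of 23 lower in FC than in BG. Aspm, which holds microtubules at the spindle poles, had 5.50, 5.52 and 5.52 in BF, 5.31 and 5.12 in FC and 6.90, 7.37 and 5.87 in BG. BF and FC lay below BG, and BG replicate 3 lay between them and the other BG tongues. The change was -1.20 in BF vs. BG (SE 0.236, adjusted p = 0.0185) and -1.50 in FC vs. BG (SE 0.264, adjusted p = 0.00167). The second Aspm probe set had estimates of -0.65 and -0.58, neither of which passed. Prc1, which bundles the microtubules of the central spindle, had 5.97, 5.90 and 5.77 in BF, 6.21 and 5.71 in FC and 6.59, 6.96 and 6.32 in BG. The groups did not overlap with BG, and Prc1 changed by -0.75 (SE 0.15, adjusted p = 0.0203) and -0.66 (SE 0.168, adjusted p = 0.0163). Nusap1, a microtubule stabiliser of the spindle, was lower by more in both (-1.48 and -1.29, adjusted p = 0.0203 and 0.0192), but its second probe set had an estimate of 0.07 in BF vs. BG. Kif20a, a kinesin of cytokinesis, and Kif11, the motor that pushes the spindle poles apart, were lower in BF vs. BG (-1.11 and -0.85, adjusted p = 0.0226 and 0.0417). Of the 3 Kif11 probe sets 2 passed, over a range of -1.09 to -0.04. Kif2c, which depolymerises microtubules at centromeres, had 4 probe sets with changes between -1.28 and 0.16 in BF vs. BG, 1 of which passed, the same one that fell most in FC vs. BG (-1.43, adjusted p = 0.00183). Hmmr, a microtubule-binding protein of the spindle, had 1 of 4 probe sets lower in both (-0.70 and -0.72, adjusted p = 0.0469 and 0.0187), and Kif22, which pushes chromosome arms outward, had 1 of 3 lower in FC vs. BG (-0.62, adjusted p = 0.0138). Tpx2, the activator of Aurka on the spindle, had -0.39 (adjusted p = 0.605).

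Centromere and chromosomal passenger genes gave 2 of 5 probe sets lower in BF and 1 of 5 in FC. Cenpa, the histone variant that marks the centromere, had 5.82, 5.7 and 5.63 in BF, 5.81 and 5.87 in FC and 8.19, 7.80 and 6.38 in BG. The BF and FC tongues were nearly equal, and all 3 BG tongues lay above them with a wide spread. It changed by -1.74 in BF vs. BG (3.34-fold lower, SE 0.278, adjusted p = 0.00729) and -1.61 in FC vs. BG (SE 0.311, adjusted p = 0.00317). Birc5 (survivin), a subunit of the chromosomal passenger complex, had 4.97, 6.10 and 5.08 in BF, 6.44 and 5.83 in FC and 7.38, 7.47 and 6.13 in BG. BF replicate 2 came within reach of BG replicate 3, and FC overlapped with BG. Birc5 changed by -1.61 in BF vs. BG (SE 0.287, adjusted p = 0.0136) and -0.86 in FC vs. BG (adjusted p = 0.096). Aurkb, the kinase of that complex, had -0.75 in BF vs. BG and -0.01 in FC vs. BG (adjusted p = 0.058 and 0.992), and Cenpe, a kinetochore motor, had -1.0 and -0.86 (adjusted p = 0.0679 and 0.0652).

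Of the 8 probe sets of chromosome structure 3 were lower in BF vs. BG. In FC vs. BG 0 passed in limma and 4 had an unadjusted p under 0.05. Mki67 (Ki-67), the coat protein of mitotic chromosomes that is used to stain dividing cells, had 7.33, 7.80 and 6.92 in BF, 7.65 and 7.84 in FC and 8.45, 8.73 and 8.01 in BG. All BG tongues lay above the others. Mki67 changed by -1.04 in BF vs. BG (SE 0.208, adjusted p = 0.0198) and -0.65 in FC vs. BG (adjusted p = 0.0809). Top2a, the topoisomerase that disentangles sister chromatids, had 6.57, 7.61 and 6.55 in BF, 7.31 and 7.57 in FC and 8.33, 8.21 and 7.5 in BG. BF replicate 2 and FC replicate 2 exceeded BG replicate 3. Top2a changed by -1.10 in BF vs. BG (SE 0.236, adjusted p = 0.026) and -0.57 in FC vs. BG (adjusted p = 0.191). Its second probe set had estimates of -0.01 and -0.03, neither of which passed. The dimmest Smc4 probe set was the other one lower in BF vs. BG (-0.95, adjusted p = 0.00994). It was the 1 of 3 Smc4 probe sets that passed, over a range of -0.95 to -0.6.

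In cytokinesis 2 of 4 probe sets were lower in either comparison. Ect2, which switches on RhoA at the cleavage site, had 4.47, 6.20 and 4.42 in BF, 4.90 and 5.33 in FC and 7.45, 7.43 and 6.38 in BG. BF replicate 2 stood far above the other flown mice and just below BG replicate 3. With -2.06 in BF vs. BG (4.17-fold lower, SE 0.334, adjusted p = 0.00729) and -1.97 in FC vs. BG (SE 0.373, adjusted p = 0.00284), its changes were the largest in BF vs. BG and next to Ccnb2 in FC vs. BG among the 63 probe sets. Anln (anillin), the scaffold of the contractile ring, had 6.18, 7.06 and 6.15 in BF, 6.66 and 6.65 in FC and 7.96, 8.23 and 7.0 in BG. BF replicate 2 slightly exceeded BG replicate 3. It changed by -1.26 (SE 0.252, adjusted p = 0.0198) and -1.07 (SE 0.282, adjusted p = 0.0197). Racgap1, the partner of Ect2 at the central spindle, had -0.31 and -0.40 (adjusted p = 0.401 and 0.225).

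**Figure D3:**
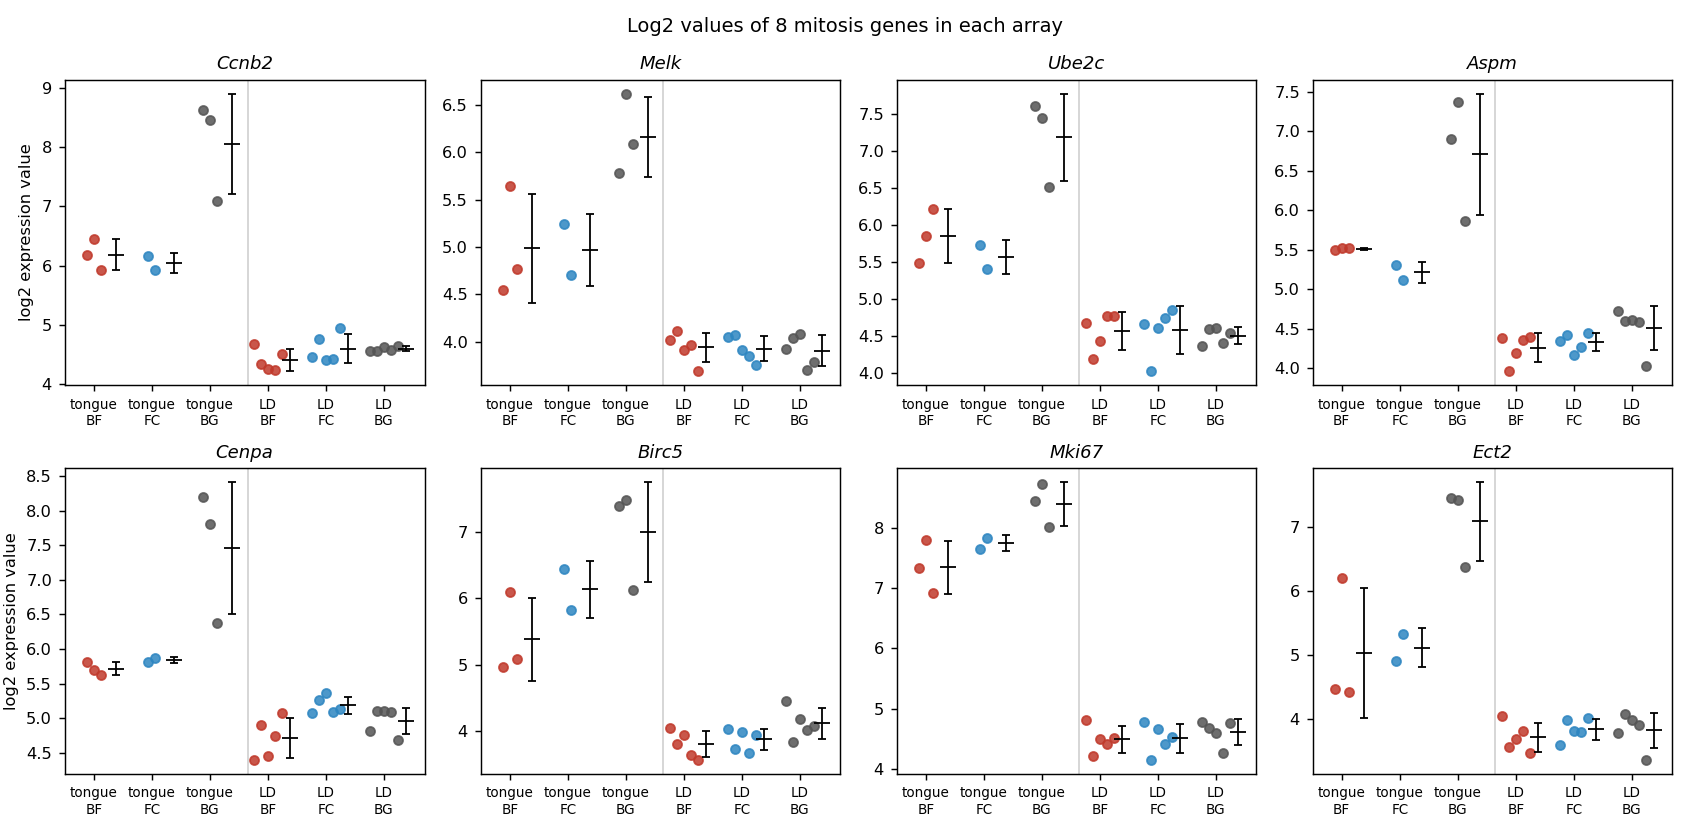
Log2 values of Ccnb2, Melk, Ube2c, Aspm, Cenpa, Birc5, Mki67 and Ect2 (vertical axes, with a scale of their own) in each array (points) of tongue BF, FC and BG and of *longissimus dorsi* (LD) BF, FC and BG, with bars for group mean ± SD. In each panel the BG tongues reached the highest values, BG replicate 3 was below at least 1 other BG tongue, and in *longissimus dorsi* the 3 groups overlapped.

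Of the 13 genes with values above that passed in BF vs. BG, Ccnb2 alone kept its call without any single array. Cenpa lost it without BG replicate 1 (-1.37, adjusted p = 0.0574). Ect2 lost it without BF replicate 1, BF replicate 3 or BG replicate 1 (adjusted p = 0.0674, 0.0607 and 0.0631). Melk lost it without BF replicate 1, BF replicate 3 or BG replicate 2, and Ube2c without BF replicate 1, BG replicate 1 or BG replicate 2, with adjusted p up to 0.108 and 0.101. The calls of Ccna2, Bub1, Aspm, Prc1, Birc5, Mki67, Top2a and Anln were each lost without any 1 of BF replicate 1, BF replicate 3, BG replicate 1 and BG replicate 2, with adjusted p of at most 0.188. No direction changed. In FC vs. BG Ccnb2, Ube2c and Aspm kept their calls without any single array. Cenpa and Ect2 lost theirs without FC replicate 1 (adjusted p = 0.0726 and 0.0909), Melk without FC replicate 2 (0.0996), Prc1 without FC replicate 2 or BG replicate 2 (0.275 and 0.1), and Anln without any 1 of 4 arrays, FC replicates 1 and 2 and BG replicates 1 and 2 (up to 0.174).

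Of the 37 genes 14 had no probe set that passed against BG, in BF or in FC: Aurka, Aurkb, Bub1b, Cdca3, Cdk1, Cenpe, Ncapd2, Nek2, Pbk, Plk1, Racgap1, Smc2, Tpx2 and Ttk. The members also differed by how tongue compared with *longissimus dorsi*, for which no test was made. Of the 23 probe sets that were more than 2-fold higher in tongue by the FC arrays, 15 were lower in BF vs. BG, with a median of -1.09, and of the other 40 probe sets 9 were, with a median of -0.42. The same sets had 9 of 23 lower in FC vs. BG, with a median of -0.65, and 9 of 40, with a median of -0.41. The FC tongues both chose these sets and entered FC vs. BG, so for that comparison the split is not independent of the change.

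Other cell cycle genes of tongue were counted beside the shares of the whole array. In BF vs. BG 0.473% of all probe sets were lower and 0.354% higher, and in FC vs. BG 4.33% and 5.13%. A list of 32 further mitosis genes (54 probe sets) had 3 lower in BF vs. BG and 6 lower in FC vs. BG, with medians of -0.38 and -0.11. Cep55, which acts at the final cut between daughter cells, changed by -1.51 and -1.50 (adjusted p = 0.0192 and 0.00819), Kif18a, a kinesin that aligns chromosomes, by -0.96 and -1.07 (adjusted p = 0.0198 and 0.00405), and Nuf2, of the outer kinetochore, by -1.14 and -1.11 (adjusted p = 0.0437 and 0.0221). DNA replication genes (29 genes, 52 probe sets) had 1 lower and 0 higher in BF vs. BG, with a median of -0.05. In FC vs. BG 2 were lower and 6 were higher, with a median of 0.19. Dbf4, the activator of the Cdc7 kinase at origins, was the lower one in BF (-1.24, adjusted p = 0.00111) and also lower in FC (-0.75, adjusted p = 0.0138), whereas Uhrf1 (1.05, adjusted p = 0.0134) and Lig1 (0.58, adjusted p = 0.024), which maintain methylation and join new strands at the fork, were higher in FC. Of 25 probe sets of E2F, MuvB and Foxm1 regulators 0 passed in BF vs. BG (6 at an unadjusted p under 0.05). In FC vs. BG 1 of 4 probe sets of Foxm1, the activator of late cell cycle genes, was higher (0.40, adjusted p = 0.0366) and 1 of 3 of Rbbp4, a histone-binding subunit of MuvB, was lower (-1.53, adjusted p = 0.000144). Of 26 probe sets of CDK inhibitors and G1 cyclins 0 passed in BF vs. BG (2 at an unadjusted p under 0.05) and 3 were higher in FC vs. BG, among them Ccnd3 (0.64, adjusted p = 0.0172). At the shares of the whole array, 0 of 25 or of 26 in BF vs. BG does not set a list apart. The 2 of 52 replication probe sets lower in FC vs. BG were near the share as well.

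Markers of the cell types in the tissue were measured beside these genes. In tongue the basal epithelium list (8 genes, 13 probe sets), which holds Krt5 and Krt14, averaged 8.87 to 9.22 in BF, 9.28 in both FC and 9.04 to 9.09 in BG, and 1 probe set was higher in BF vs. BG (Itgb4, 0.74, adjusted p = 0.0437). The differentiated epithelium list (14 genes, 20 probe sets) averaged 11.18 to 11.36 in BF, 11.35 to 11.43 in FC and 11.33 to 11.46 in BG, with 0 of 20 passed in BF vs. BG (5 at an unadjusted p under 0.05) and 3 higher in FC vs. BG. Neither list had a probe set that passed as lower, at medians of 0.03 and -0.05 in BF vs. BG. On both Itga6 probe sets and the brightest Trp63 one, of the basal list, every BF tongue lay below every BG tongue, without passing. The brighter Itga6 probe set was at 9.65 to 10.03 in BF and 10.08 to 10.27 in BG. That of Trp63 was at 9.33 to 9.65 in BF and 9.84 to 9.92 in BG. Itgb4 lay above BG throughout, and on the other basal probe sets BF and BG overlapped. The summed linear level of the basal list was 17100 to 19700 in BF, 20800 to 21100 in FC and 18500 to 19200 in BG. Muscle fibre markers averaged 10.79 to 11.78 in BF, 10.92 to 11.01 in FC and 10.68 to 11.54 in BG. Macrophage markers (10 genes, 14 probe sets) averaged 7.76 to 7.89 in BF, 7.94 to 8.17 in FC and 8.02 to 8.32 in BG, and fibroblast markers (6 genes, 10 probe sets) 8.66 to 8.95 in BF, 9.66 to 9.79 in FC and 9.22 to 9.34 in BG, and 0 probe sets of either passed in these comparisons (0 and 3 at an unadjusted p under 0.05 in BF vs. BG). Their part in the result was not tested. The basal, differentiated, muscle fibre, satellite cell, macrophage, lymphocyte, endothelium and fibroblast lists together held 94 probe sets. Of these 1 passed in BF vs. BG and 7 in FC vs. BG, all of them higher. Over all probe sets 0.354% and 5.13% were higher in these comparisons. Those in FC were Itgb4 (1.15, adjusted p = 0.00116), the keratins Krt84 and Krt10 and the envelope protein Lor (0.67, 0.50 and 0.46), the myosins Myh4 and Myh1 (0.43 and 0.46) and the endothelial receptor Kdr (0.65), with adjusted p of 0.0101 to 0.0362 for the last 6. Lor and Myh1 each have other probe sets, which did not pass.

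**Figure D4:**
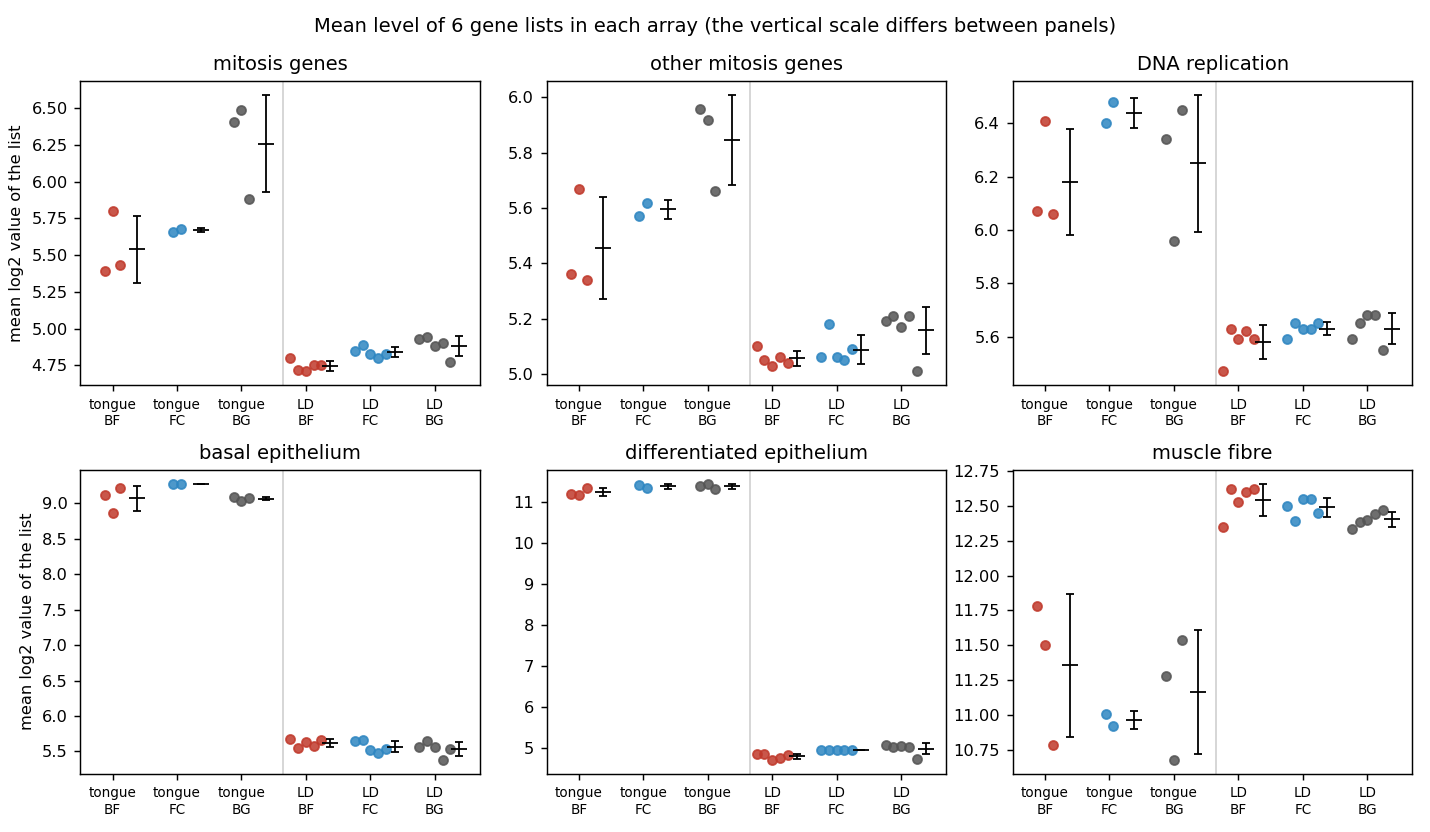
Mean log2 value (vertical axis, with a scale of its own in each panel) of 6 gene lists in each array (points) of tongue and *longissimus dorsi* (LD), with bars for group mean ± SD. The mitosis lists had their highest group means in BG tongues. For the other mitosis genes BG replicate 3 (5.66) lay just below BF replicate 2 (5.67). The basal epithelium list was at 9.04 to 9.09 in BG tongues, within the 8.87 to 9.22 of BF and below the 9.28 of both FC tongues.

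Tongue expressed the mitosis genes at higher levels than *longissimus dorsi* in each housing group. In BF 41 of the 63 probe sets were higher in tongue and 3 lower, with a median difference of 0.71, where 18.3% of all probe sets were higher and 27.5% lower. In FC 42 were higher and 6 lower, with a median of 0.79 (19.1% of all higher, 27.7% lower), and in BG 50 were higher and 7 lower, with a median of 1.26 (19.8% of all higher, 34.3% lower). Cks2 had the largest difference in BG, at 4.0 (SE 0.206, adjusted p = 1.52e-13), followed among genes by Cdc20, on a dimmer probe set, at 3.87 and by Mki67 at 3.78. The second Cks2 probe set differed by 3.94. Aurka ran the other way. It was lower in tongue than in *longissimus dorsi* by 0.60 in BF, 1.11 in FC and 0.70 in BG on the log2 scale (adjusted p = 0.0228, 0.000643 and 0.00859), and so was the dimmer probe set of Tpx2 (-0.73, -1.35 and -0.76, adjusted p = 0.00889, 0.000132 and 0.00685). Tongue differed from *longissimus dorsi* in epithelium as well as in muscle, and these cannot be told apart in whole tissue.

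In *longissimus dorsi* 2 of the 63 probe sets were lower in BF than in BG and 0 higher, against 3.83% of all probe sets lower, and the median change was -0.12. Aurka, the kinase that matures the spindle poles, had 5.64, 5.52, 5.62, 5.57 and 5.62 in BF, 5.86, 6.28, 5.97, 6.61 and 6.38 in FC and 6.59, 6.61, 6.67, 6.72 and 5.61 in BG. All flown muscles lay below all FC muscles and below 4 of the 5 BG muscles, and BG replicate 5 was at the level of the flown mice. Aurka changed by -0.85 in BF vs. BG (1.80-fold lower, SE 0.183, adjusted p = 0.00532) and passed under all 31 alternatives, with adjusted p up to 0.0184. Kif11 had 3.99, 4.06, 3.91, 4.11 and 4.27 in BF, 4.05, 4.17, 4.20, 4.42 and 4.19 in FC and 4.39, 4.92, 3.97, 4.63 and 4.80 in BG. BG replicate 3 was as low as the flown mice. Its change of -0.47 lay at the threshold (SE 0.152, adjusted p = 0.0499), and 23 of 31 alternatives put it on the other side, with adjusted p up to 0.143. The count was 5 when BG replicate 5 and 4 when BG replicate 3 was dropped. It was 1 without any single BF array, BG replicate 2 or 4, FC replicate 1, 3, 4 or 5, or, through the shared spread, BF replicate 1 or 3, BG replicate 1 or 2 or either FC array of tongue. Macrophage markers (14 probe sets) had a summed linear level of 2370 to 7230 in BF, 2860 to 6200 in FC and 4210 to 17800 in BG, where replicate 5 was the highest, with 0 passed in BF vs. BG (7 at an unadjusted p under 0.05) and Lyz2 lower in FC vs. BG (-1.14, adjusted p = 0.0195). Array weights, which lower the influence of arrays that stand apart, raised the count of mitosis probe sets to 11. Over the lists of other cell types 5 of 94 probe sets were higher and 4 lower in BF vs. BG. Of all probe sets 6.41% were higher and 3.83% lower, so these counts lay near the share of the whole array. The higher ones were Trp63 (0.83) and Itgb4 (0.58) of the basal epithelium list, Tie1 (0.60) and Cdh5 (0.46) of endothelium and Myh8 (0.51) of the satellite cell and myoblast list, and the lower ones were Col3a1 of fibroblasts (-1.27) and the keratins Krt6a (-0.48), Krt10 (-0.47) and Krt6b (-0.43), with adjusted p of 0.00481 to 0.042. Trp63, Cdh5, Col3a1 and Krt6a each have other probe sets, which did not pass. The Trp63 probe set that passed was at 5.34 to 6.82 in *longissimus dorsi* and no higher in tongue (5.66 to 6.02). The part of these cell types in the result was not tested.

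Other regulators of the cycle passed in *longissimus dorsi* BF vs. BG. Of 26 probe sets of CDK inhibitors and G1 cyclins 4 were higher and 1 lower, where 6.41% of all probe sets were higher. Both probe sets of Cdkn1a (p21), an inhibitor of cyclin-dependent kinases, were higher (1.29 and 1.23, adjusted p = 0.00229 and 0.00252), as were both of Cdkn1b (p27), a related inhibitor (0.48 and 0.55, adjusted p = 0.0485 and 0.0195), and Cdk6, a kinase of G1, was lower (-0.33, adjusted p = 0.0262). Of 25 probe sets of E2F, MuvB and Foxm1 regulators 4 were higher and 0 lower. They belonged to Rbl2 (p130), the pocket protein that represses cell cycle genes in resting cells (1.02 and 0.87, adjusted p = 0.00398 and 0.0025), and Rbbp4 (0.58 and 0.86, adjusted p = 0.00455 and 0.000585). In BF vs. FC, where 2.06% of all probe sets were higher, Cdkn1a was higher by 1.76 and 1.66 (adjusted p = 0.00029 and 0.00035), Rbl2 by 0.85 on 1 probe set (adjusted p = 0.0235) and Rbbp4 by 1.19 on 1 (adjusted p = 4.15e-05). That Rbbp4 probe set was also higher in BF vs. FC of tongue (1.99, adjusted p = 1.94e-05).

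In FC vs. BG 1 probe set was higher and 0 lower in *longissimus dorsi*, against 6.79% of all probe sets higher, at a median of -0.04. Ncapd2, a condensin subunit, had 5.34, 5.22, 5.05, 5.08 and 5.31 in BF, 5.38, 5.96, 5.62, 5.33 and 5.43 in FC and 4.90, 5.10, 4.87, 4.72 and 4.87 in BG. All FC muscles lay above all BG muscles, and the BF muscles lay between the group means. Ncapd2 was higher in FC vs. BG by 0.66 (SE 0.124, adjusted p = 0.00348), and its estimate in BF vs. BG was 0.31 (adjusted p = 0.117). Mad2l1 had 6.10, 6.12, 5.99, 6.03 and 5.86 in BF, 5.95, 5.79, 5.94, 6.10 and 6.07 in FC and 6.41, 6.18, 6.54, 6.28 and 6.32 in BG. BG lay above both other groups, yet the estimate of -0.38 in FC vs. BG did not pass (adjusted p = 0.222). Bub1 had 4.21, 3.71, 3.90, 3.88 and 3.88 in BF, 3.65, 3.76, 3.86, 3.87 and 3.73 in FC and 4.26, 4.17, 4.01, 4.01 and 4.01 in BG. FC lay below BG throughout, by an estimate of -0.31 that did not pass either (adjusted p = 0.227). Dropping BG replicate 5 gave a count of 4, and the count was 2 without BG replicate 3, FC replicate 2 or tongue BF replicate 2.

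In BF vs. FC 1 probe set was lower and 0 higher, against 1.6% of all probe sets lower, at a median of -0.05. This was the dimmer probe set of Tpx2, which had 5.19, 5.39, 5.11, 5.14 and 5.33 in BF, 5.95, 6.37, 6.29, 5.56 and 6.24 in FC and 6.30, 6.35, 5.07, 5.41 and 5.47 in BG. BF lay below FC throughout, and the BG muscles fell into high and low values, replicates 1 and 2 against replicates 3 to 5. It changed by -0.85 (SE 0.192, adjusted p = 0.013) in BF vs. FC and had -0.49 in BF vs. BG (adjusted p = 0.111). The brighter Tpx2 probe set had 5.55, 5.88, 5.45, 5.54 and 5.77 in BF, 6.49, 6.41, 6.90, 6.15 and 6.36 in FC and 7.22, 6.87, 5.33, 5.89 and 5.94 in BG. Its BG muscles fell into the same high and low replicates, with an estimate of -0.83 in BF vs. FC (SE 0.248, adjusted p = 0.0673). Aurka, which Tpx2 activates, had -0.63 (SE 0.183, adjusted p = 0.0597), again without overlap. Cenpa had 4.40, 4.90, 4.45, 4.74 and 5.08 in BF, 5.08, 5.27, 5.36, 5.09 and 5.14 in FC and 4.82, 5.10, 5.10, 5.09 and 4.69 in BG. BF replicate 5 reached the FC values, and the estimate of -0.47 in BF vs. FC did not pass (adjusted p = 0.279). Among the 94 probe sets of other cell types 1 was higher and 2 were lower, against 2.06% and 1.6% of all. Cdh5 was higher (0.37, adjusted p = 0.0445) and Krt13 and Krt10 were lower (-0.52 and -0.39, adjusted p = 0.0113 and 0.0286). Cdh5 and Krt13 each have another probe set, which did not pass. Their part in the result was not tested. The count of mitosis probe sets was 2 without BG replicate 1, 3 or 5 or FC replicate 1, and 3 without tongue BG replicate 3. Without BG replicate 5 Aurka passed in BF vs. FC (adjusted p = 0.00904), as it did without FC replicate 1 (0.0373) and tongue BG replicate 3 (0.0486), while the brighter Tpx2 probe set passed without BG replicate 1 (0.0256) or BG replicate 3 (0.0303). The ranges of adjusted p over their alternatives were 0.00534 to 0.142 and 0.0256 to 0.19.

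**Figure D5:**
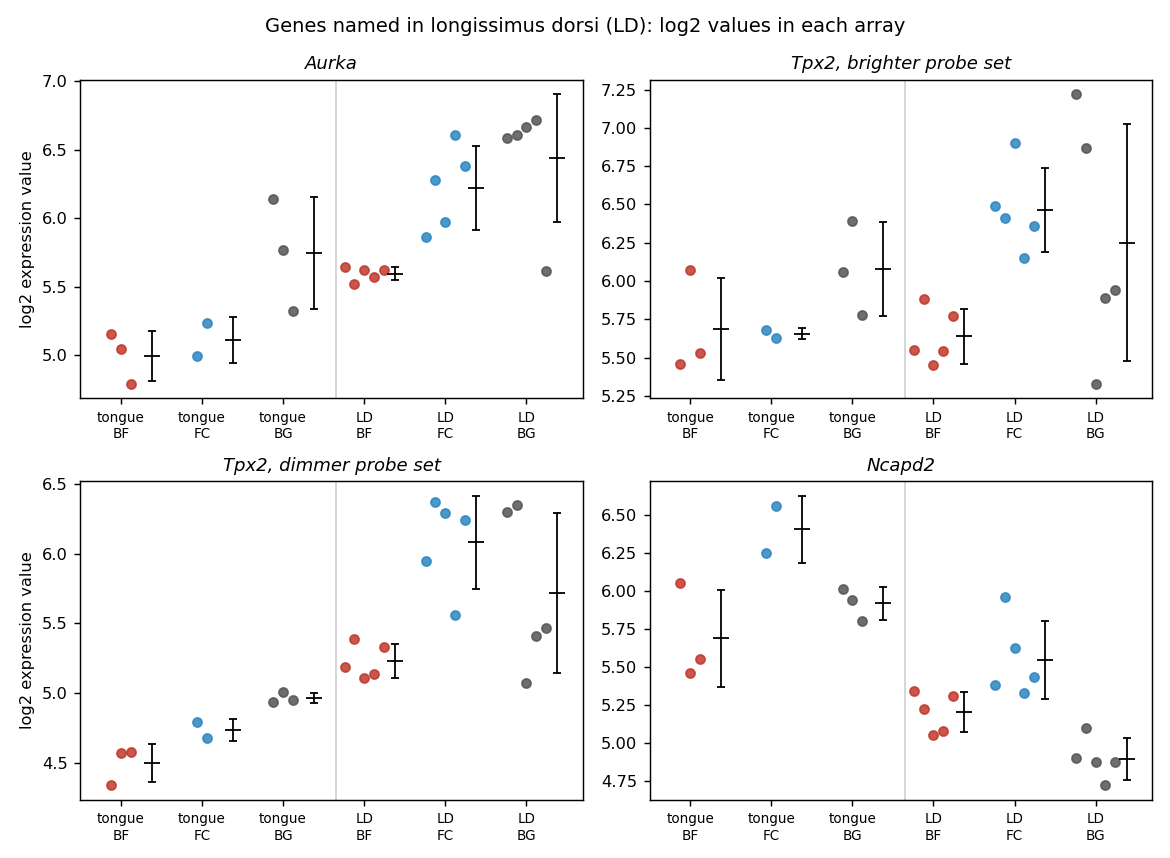
Log2 values of Aurka, of both Tpx2 probe sets and of Ncapd2 (vertical axes, with a scale of their own) in each array (points) of tongue and *longissimus dorsi* (LD) BF, FC and BG, with bars for group mean ± SD. In *longissimus dorsi* the 5 BF values of Aurka lay between 5.52 and 5.64, below the FC values of 5.86 to 6.61, and 1 BG value lay at 5.61 beside 4 of 6.59 to 6.72.

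Whether the change in tongue exceeded that in *longissimus dorsi* was tested as the difference of the differences. For BF vs. BG 2 probe sets passed, both with a lower value in tongue, against 0.159% of all probe sets in that direction. Ccnb2 differed by -1.69 (SE 0.32, adjusted p = 0.0357), from -1.88 in tongue and -0.19 in *longissimus dorsi*. The dimmest of the 3 Smc4 probe sets differed by -1.23 (SE 0.203, adjusted p = 0.0195), from -0.95 and 0.27. For FC vs. BG 3 passed, against 0.0796% of all. They were Ccnb2 (-2.03, SE 0.344, adjusted p = 0.00882), Cenpa (-1.84, SE 0.378, adjusted p = 0.0356) and Ube2c (-1.69, SE 0.326, adjusted p = 0.0231). In *longissimus dorsi* Ccnb2 was at 4.23 to 4.94, Cenpa at 4.40 to 5.36 and Ube2c at 4.03 to 4.86, far below the median of 6.56. At such levels a fall could hardly be measured, so the test cannot tell a missing change from an unseen one. The Smc4 probe set was at 6.09 to 6.75 there. For BF vs. FC 0 passed in limma, and 4 had an unadjusted p under 0.05, with 1 passing without BF replicate 2 of tongue. The BF vs. BG count was 0 without BF replicate 3 or BG replicate 1 of tongue or BG replicate 3 of *longissimus dorsi*. It was 1 without BF replicate 1, BG replicate 2 or either FC array of tongue, or without BF replicate 3, 4 or 5 or BG replicate 1 or 2 of *longissimus dorsi*. Dropping BF replicate 2 of tongue gave 19, BG replicate 3 of tongue 21 and BG replicate 5 of *longissimus dorsi* 11. The FC vs. BG count was 0 without either FC tongue, 1 without BG replicate 1 or 2, 7 when BF replicate 2 and 10 when BG replicate 3 of tongue was dropped. With array weights the counts were 28 for BF vs. BG and 11 for FC vs. BG. The number of members whose change differed between tongue and *longissimus dorsi* depended on that setting.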

How the data were processed

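RNA of 8 tongue and 15 *longissimus dorsi* samples was hybridised to 1 array each. The authors deposited log2 expression values per probe set, which per the study's methods and the submitters' processing notes came out of RMA in Partek, an algorithm that corrects background, quantile normalizes and summarizes probes. They were used as deposited, with no filter, on 22626 probe sets, of which 20380 name a single gene. The scanned intensities were not used. The 23 arrays were fitted in limma 3.58.1 under R 4.3.3 as 6 groups of tissue by housing (17 residual degrees of freedom, eBayes), with Benjamini-Hochberg adjustment across the whole array in each contrast. Passing means an adjusted p under 0.05, and the sign of the change gives higher or lower. The study's methods name ANOVA with a 2-fold limit, which is given beside the counts. Values in every array were given for the 2 genes of each of 7 roles with the smallest adjusted p in tongue BF vs. BG and for the 4 in each *longissimus dorsi* comparison; the Tpx2 and Smc4 probe sets that do not represent their gene were added after their values were seen. Members and lists were chosen with earlier results of these data known. The samples are separate by their labels, and no source says that numbers pair them. Deviations of same-numbered BF and BG tongues from their group means correlated at 0.167 to 0.383 in all 3 pairs, and the fit with the replicate number as a block gave 25 probe sets in place of 24. Alternatives were each tissue alone, no moderation, trend and robust moderation, brighter probe sets (mean at or above 6.56), quantile normalization within tissue, median centring, array weights, replicate block, 1 probe set per gene, the 2-fold limit and leaving out each array. The procedure was tested on simulated data. The number of arrays limits the precision. Promoters were taken from RefSeq GRCm38.p6.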

Additional observations from a re-analysis of the deposited data

Results flagged for a closer look

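Aurka in *longissimus dorsi* BG replicate 5 was at 5.61, far below the nearest other BG array at 6.59, a gap of 0.884 of the range of the 5 arrays. This was 1 of 24 groups of values examined in this way, and chance flags about 1 in 20.

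In 5 cases the change in tongue differed from that in *longissimus dorsi* by a test of the difference itself in limma. For BF vs. BG these were Smc4 (-1.23, adjusted p = 0.0195, dimmest of 3 probe sets) and Ccnb2 (-1.69, adjusted p = 0.0357). For FC vs. BG they were Cenpa (-1.84, adjusted p = 0.0356), Ccnb2 (-2.03, adjusted p = 0.00882) and Ube2c (-1.69, adjusted p = 0.0231). All of them share the tongue BG arrays, of which replicate 3 was lower than the others for Ccnb2, Cenpa and Ube2c. In *longissimus dorsi* Ccnb2, Cenpa and Ube2c were at 4.03 to 5.36, where a fall could hardly be measured.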

How the results depend on the processing

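With 2 or 3 tongues per group the number of mitosis probe sets past the threshold moved widely, while no named gene changed direction. Of 40 gene values under the alternatives 1143 kept their side of the threshold, 91 lost it, 34 gained it and 0 reversed. Leaving out 1 array at a time, the counts ranged from 2 to 37 in tongue BF vs. BG, 5 to 33 for FC against the same BG arrays and 0 to 4 between BF and FC, from 1 to 5, 1 to 4 and 1 to 3 in the same comparisons of *longissimus dorsi*, from 40 to 45, 34 to 49 and 48 to 57 for tongue against *longissimus dorsi* in BF, FC and BG, and from 0 to 21, 0 to 10 and 0 to 1 for the differences between the tissues in the same 3 comparisons. Each tissue alone gave 1, 10 and 1 in tongue and 2 in *longissimus dorsi* FC vs. BG. No moderation gave 13 in tongue BF vs. BG, and 1 in tongue BF vs. FC, in *longissimus dorsi* BF vs. BG and in the differences of BF vs. BG and FC vs. BG. Brighter probe sets, of which the members hold 5, gave 1, 0 and 1 in tongue, 0 in each comparison of *longissimus dorsi*, 4, 5 and 5 between tissues in BF, FC and BG, and 1 and 0 for the differences; the median of *longissimus dorsi* BF vs. BG was then 0.06. Array weights gave 41, 35 and 7 in tongue, 11, 2 and 3 in *longissimus dorsi* and 28, 11 and 2 for the differences. One probe set per gene gave 11 in tongue FC vs. BG, 0 for tongue BF vs. FC, 0 in *longissimus dorsi* BF vs. FC, 28 and 34 between tissues in BF and BG, and 1 for the difference of BF vs. BG. Quantile normalization within tissue gave 1 in *longissimus dorsi* BF vs. BG. The 2-fold limit gave 0 in tongue BF vs. FC and in *longissimus dorsi*, and 22, 25 and 36 between tissues in BF, FC and BG. The causes were not tested, apart from the fewer probe sets.

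With the replicate number as a block the count was 2 in *longissimus dorsi* BF vs. FC and 5 and 7 for the differences of BF vs. BG and FC vs. BG; in the tongue arrays alone, a fit added after the data were seen, the counts were 30 for BF and 34 for FC, each against BG, and 1 between BF and FC. Only between BF and BG tongues did all same-numbered pairs correlate over 0.1. Between BF and FC of *longissimus dorsi* 4 of 5 did, at up to 0.545. Over all pairs within a tissue 11 of 22 correlations were over 0.1 (-0.218 to 0.545).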
